A study of Homo sapiens with 16 samples.

Results

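Hydroxyurea (HU) was compared with no drug in U2OS cells, a human osteosarcoma line, over 8 of the 16 RNA sequencing libraries of the study. The 8 libraries formed 4 pairs, each made of an HU and an untreated library with the same siRNA and the same replicate number. Members were the genes whose FPKM (fragments scaled to exon length and sequencing depth) averaged 1 or more over the 16 libraries, 13088 of the 58735 genes listed. The study asked how the SETD2 methyltransferase and its mark on histone H3, H3K36me3, bear on transcription under replication stress.

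Untreated siNT cells (non-targeting control siRNA) and untreated siSETD2 cells (siRNA against SETD2) were the references. The matching HU groups carried the same siRNAs and received 2 mM HU for 4 h. The remaining 8 libraries came from cells given 2 µM VE-822 (VE), an inhibitor of the checkpoint kinase ATR, alone or with HU. Every group, the untreated ones included, carried an siRNA, was collected 48 h after transfection and held 2 libraries, labelled R1 and R2. SETD2 was lowered by siRNA and not deleted, and every library came from 1 cell line. The labels do not say whether R1 and R2 were separate cultures, so the p-values cover the spread among these libraries alone, and that spread may be technical. Wherever 4 values are listed, their order is siNT R1, siNT R2, siSETD2 R1 and siSETD2 R2.

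HU blocks ribonucleotide reductase, the enzyme that makes the deoxynucleotides for DNA synthesis, and so slows or stops replication forks. Stalled forks activate ATR and its effector kinase CHK1, which hold back mitotic entry, restrain late origins and sustain E2F-driven transcription of S phase genes. U2OS cells carry functional p53, the transcription factor that induces cell cycle inhibitors and repair genes after DNA damage.

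The libraries held 22310806 to 31101932 fragments and 26548 to 29191 genes with at least 1 fragment. SETD2 was measured at 8.40, 8.06, 2.01 and 4.17 FPKM in untreated cells and at 8.12, 8.09, 2.22 and 4.13 FPKM in HU. Both siSETD2 libraries lay below both siNT libraries in each condition, and the difference between HU and untreated was 0.01 on the log2 scale (adjusted p = 0.961). Of the mesenchymal and bone markers listed, 6 reached the mean of 1 FPKM, with VIM, COL1A1, SPARC, CDH2, THY1 and RUNX2 among them, and none of these was called in HU. COL1A2, TWIST1 and the bone genes SP7, ALPL and BGLAP were below 1 FPKM on average. The summed level of blood cell markers was 1.88 to 3.08 FPKM in untreated and 1.63 to 3.25 FPKM in HU libraries, with HBA1 at 0 in all of them. That of epithelial markers was 90.1 to 120.6 FPKM and 90.8 to 105 FPKM, mostly KRT18. In a number of genes, but not in all, the untreated R1 libraries stood apart from the untreated R2 libraries. The proliferation marker MKI67 was at 41.0, 51.0, 18.9 and 46.8 FPKM in untreated cells, so that the untreated siSETD2 R1 library lay below all 4 HU libraries, at 22.8, 30.5, 26.5 and 27.7 FPKM. Transcripts of the mitochondrial genome made up 40.6% to 52.4% of the summed FPKM of untreated libraries and 38.4% to 50.2% in HU.

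Genes that passed the test in HU included 21 of 80 mitotic genes tested, all lower. The test was fitted with limma to 12 libraries, the 8 compared and the 4 with HU and VE, which entered for the estimate of the spread, with pairs as a block. At a Benjamini-Hochberg adjusted p under 0.05 over all genes tested, 81 genes rose and 85 fell, which is 0.619% and 0.649% of the 13088 genes tested. Together these were 166 genes (1.27%), and all of them moved in the same direction in each of the 4 pairs. In 38 of the 81 that rose, all 4 HU libraries lay above all 4 untreated ones, against 2.11% of all genes tested. In 60 of the 85 that fell, all 4 lay below, against 2.19%. The genes were called from these same libraries, which raises both shares and the agreement among pairs, so these are a description. The same block in the 8 compared libraries alone gave 8 that rose and 23 that fell, with the same fold changes, and without the block the 12 libraries gave 0 and 0. At an unadjusted p under 0.05 there were 2207 genes with the 12 libraries and the block, and 1755 genes (13.4%) were higher and 1448 (11.1%) lower in all 4 pairs, so the number called is no measure of how many genes changed. Of the calls, 2 of the genes that rose and 13 of those that fell moved by more than 1 on the log2(FPKM + 1) scale, on which changes of genes near 1 FPKM are understated. Protein-coding genes made up 69 of the 81 that rose. They made up 54 of the 85 that fell, beside 13 pseudogenes (15.3%) and 15 long noncoding RNAs (17.6%), while pseudogenes were 5.15% and long noncoding RNAs 10.4% of all genes tested. The counts depended on single libraries, since they were 154 higher and 125 lower without the untreated siNT R1 library, 10 and 19 without untreated siNT R2, 14 and 20 without siNT HU R1, and 7 and 15 without siNT HU R2. For siSETD2 they were 179 and 213 without untreated R1, 11 and 19 without untreated R2, 17 and 25 without HU R1, and 6 and 13 without HU R2. Rescaling each library to the same FPKM total gave 89 higher and 55 lower, so that the share of calls that were higher was 61.8% in place of 48.8%.

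**Figure D1:**
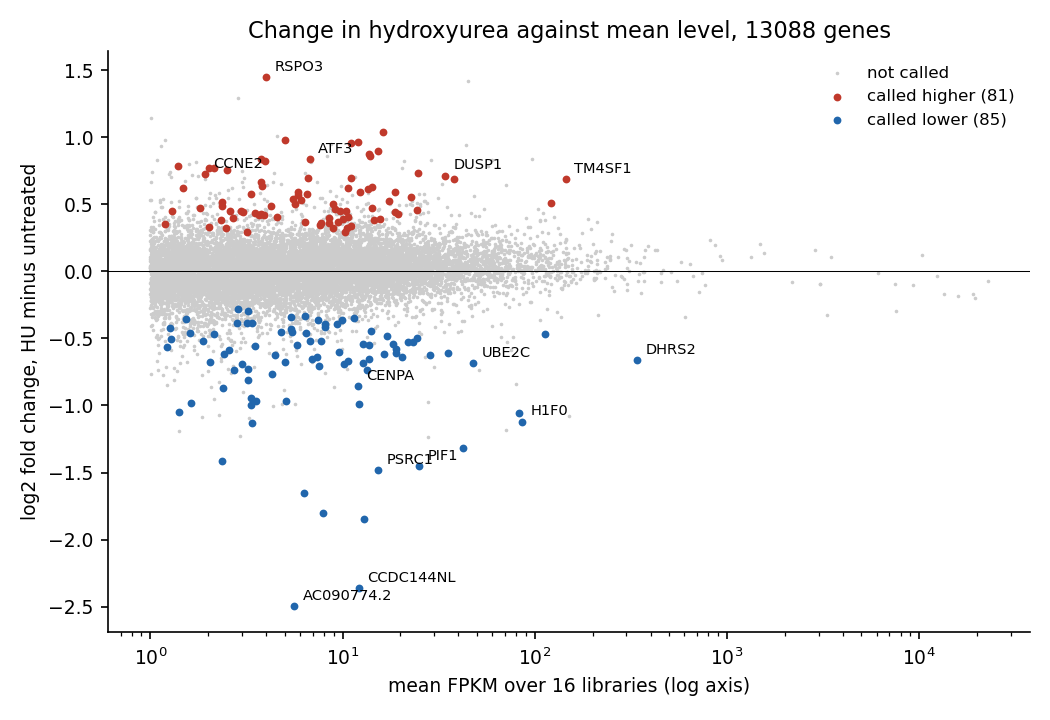
Mean FPKM over the 16 libraries (x, log axis) against the log2 fold change of HU minus untreated (y) for the 13088 genes tested, each point a gene, with 81 called higher in red and 85 called lower in blue. Most genes sit near 0, and the points farthest below it include CCDC144NL and AC090774.2, beyond -2.

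Genes of G2 and mitosis were lower in HU almost throughout their list. Of 80 tested, 21 fell and 0 rose, against 0.649% and 0.619% of all genes, and 79 had a negative fold change. In 36 of the 80 all HU libraries lay below all untreated ones, against 2.19% of all genes. These included 20 of the 21 that fell, a share raised because those were called from these same libraries. The median log2 fold change was -0.39, against 0.01 over all genes, and it was -0.31, -0.52, -0.29 and -0.50 in the 4 pairs. In RNA from bulk cells, fewer cells in G2 or mitosis and less RNA of these genes per cell cannot be told apart.

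Many mitotic genes carry a CHR element, bound by the DREAM and MMB complexes, near a CCAAT box, bound by NF-Y. RefSeq promoters (250 bases before to 50 after the start, GRCh38.p14) were found for 67 of the 80 genes tested. TTTGAA, the CHR element, on either strand was in 44 of the 67 (65.7%), CCAAT in 49 (73.1%) and both in 38 (56.7%). Among the 9172 promoters found for the 13088 genes tested (70.1%) the shares were 9.38%, 36.5% and 3.98%, and among all 27305 promoters of that table they were 15.4%, 35.7% and 6.08%. The E2F-regulated G1/S list gave another picture, with TTTGAA in 1.75% of 57 promoters, and with an E2F site, TTTCCCGC or TTTGGCGC, in 45.6%. An E2F site was in 2.99% of the promoters of the G2/M list, 3.99% of those of the genes tested and 2.31% of all promoters. Other motifs searched in the G2/M list were TGACG in 41.8%, TGACGTCA, which contains it, in 5.97%, TATAAA in 5.97%, TGATGNAA in 4.48%, and TGANTCA and the NF-kB motif GGGANTTCC in 1.49% each. Among the genes tested these were at 35.3%, 3.39%, 5.41%, 1.70%, 4.60% and 2.37%. In all promoters TATAAA was in 3264, and the others were at 25.0%, 1.98%, 3.67%, 7.76% and 1.86%. A match is a description of the letters and was not tested for binding. Promoters were matched for 60 of the 81 genes that rose (74.1%) and 42 of the 85 that fell (49.4%), under the 80% required here to describe a set, so a check of motifs in those sets is void. The genes tested as a whole also lay under that share, and their motif shares cover the matched genes alone.

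The promoters of 5 mitotic genes that fell are shown because they place these elements beside the levels given next, 5′ to 3′ on the strand of the gene, with TTTGAA and CCAAT on either strand in capitals. CENPA lies at chr2:26785806-26786105 on the plus strand, PIF1 at chr15:64825598-64825897 on the minus strand, PLK1 at chr16:23678639-23678938 on the plus strand, CDC20 at chr1:43358731-43359030 on the plus strand and PSRC1 at chr1:109283096-109283395 on the minus strand.
CENPA: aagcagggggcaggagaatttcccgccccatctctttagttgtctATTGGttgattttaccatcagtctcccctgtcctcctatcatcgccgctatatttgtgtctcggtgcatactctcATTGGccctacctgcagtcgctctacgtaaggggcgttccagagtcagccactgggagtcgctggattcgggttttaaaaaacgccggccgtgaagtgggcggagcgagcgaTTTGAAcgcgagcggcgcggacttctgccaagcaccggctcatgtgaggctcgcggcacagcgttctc
PIF1: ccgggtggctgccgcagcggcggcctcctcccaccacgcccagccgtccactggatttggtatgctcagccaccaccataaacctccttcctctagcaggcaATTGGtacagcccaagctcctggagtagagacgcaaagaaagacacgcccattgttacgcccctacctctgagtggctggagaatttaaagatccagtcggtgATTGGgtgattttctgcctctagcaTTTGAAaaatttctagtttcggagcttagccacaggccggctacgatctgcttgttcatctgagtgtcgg
PLK1: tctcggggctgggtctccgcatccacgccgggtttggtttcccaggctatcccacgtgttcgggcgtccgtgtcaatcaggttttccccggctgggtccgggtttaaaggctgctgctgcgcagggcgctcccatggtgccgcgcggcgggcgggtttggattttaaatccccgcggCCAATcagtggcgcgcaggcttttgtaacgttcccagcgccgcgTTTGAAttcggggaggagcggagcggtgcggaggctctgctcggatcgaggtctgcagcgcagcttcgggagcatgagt
CDC20: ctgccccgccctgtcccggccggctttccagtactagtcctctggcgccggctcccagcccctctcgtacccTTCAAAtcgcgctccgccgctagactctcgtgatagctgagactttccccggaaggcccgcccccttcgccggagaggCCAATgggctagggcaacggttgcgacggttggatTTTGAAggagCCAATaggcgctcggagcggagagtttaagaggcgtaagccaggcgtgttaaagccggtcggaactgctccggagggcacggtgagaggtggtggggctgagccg
PSRC1: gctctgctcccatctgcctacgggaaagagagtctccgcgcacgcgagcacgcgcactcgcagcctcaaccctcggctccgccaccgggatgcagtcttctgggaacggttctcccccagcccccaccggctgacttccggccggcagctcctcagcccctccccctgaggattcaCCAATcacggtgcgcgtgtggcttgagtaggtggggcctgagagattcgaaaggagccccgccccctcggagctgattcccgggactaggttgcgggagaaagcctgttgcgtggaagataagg
The first base of TTTGAA lies at position -18 relative to the start in CENPA, -20 in PIF1, -29 in PLK1, and -65 and -178 in CDC20. The window of PSRC1 holds a CCAAT at -74 and no TTTGAA. The promoters shown were picked by name and do not stand for all mitotic genes that fell. Those of CDC25C, CKAP2, TACC3 and KNSTRN, which also fell, held neither element.

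CENPA (ENSG00000115163, chr2:26764289-26801067, plus strand), the histone H3 variant that marks centromeres, was at 11.2, 13.7, 12.5 and 13.5 FPKM in untreated cells and at 6.12, 6.43, 7.25 and 6.49 FPKM in HU. All 4 HU libraries lay well below the lowest untreated one, and the spread within each group was small. CENPA fell by 0.85 on the log2 scale (SE 0.089, adjusted p = 0.00297), to 51.7% of the untreated mean. CENPA overlaps SLC35F6 on the same strand, so some fragments may be shared. With VE added to HU, CENPA was at 12.9 to 17.9 FPKM, none of them below the untreated range.

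PSRC1 (chr1:109279556-109283186, minus strand), a spindle protein of anaphase, was at 13.9, 27.1, 16.5 and 26.4 FPKM in untreated cells and at 5.77, 6.81, 6.20 and 7.69 FPKM in HU. The groups did not overlap, although the untreated R1 libraries were lower than the untreated R2 libraries. It fell to 31.5% of the untreated mean, with a log2 fold change of -1.48 (SE 0.15, adjusted p = 0.00241). PIF1 (chr15:64815632-64825668, minus strand), a DNA helicase that also acts at telomeres, was at 29.1, 41.1, 24.7 and 46.1 FPKM in untreated cells and at 9.34, 12.4, 12.4 and 13.7 FPKM in HU. Its highest HU value was under the lowest untreated value. PIF1 fell by 1.45 on the log2 scale (SE 0.22, adjusted p = 0.0195).

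PLK1, a kinase of mitotic entry and spindle assembly, was at 21.0, 24.2, 18.2 and 23.7 FPKM in untreated cells and at 12.9, 16.2, 11.9 and 14.7 FPKM in HU, a log2 fold change of -0.61 (SE 0.097, adjusted p = 0.0228). AURKA, the kinase of spindle poles, was at 28.4, 33.5, 32.5 and 32.8 FPKM and then at 20.4, 20.6, 21.4 and 18.5 FPKM, a log2 fold change of -0.63 (SE 0.092, adjusted p = 0.0191). For neither kinase did the groups overlap. CDC20, the activator of the anaphase-promoting complex, was at 105, 134, 119 and 149 FPKM in untreated cells and at 79.6, 93.8, 86.9 and 103 FPKM in HU. CDC20 fell by 0.47 on the log2 scale (SE 0.075, adjusted p = 0.0232), with the HU maximum just under the untreated minimum. UBE2C, the ubiquitin-conjugating enzyme of the same complex, was at 48.3, 51.0, 65.3 and 53.2 FPKM and then at 30.7, 33.6, 35.5 and 33.4 FPKM, a log2 fold change of -0.69 (adjusted p = 0.0148). For UBE2C too, the groups did not overlap.

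HJURP, the chaperone that loads CENPA, fell by 0.65 on the log2 scale, and NDC80 and NUF2, subunits of one kinetochore complex, fell by 0.52 and 0.45. NUF2 was the exception among the 21 in that its groups overlapped, at 11.7 to 20.1 FPKM untreated and 8.51 to 13.2 FPKM in HU. CDCA8, a subunit of the chromosomal passenger complex, fell by 0.49, and the spindle motor KIFC1 by 0.61. The others that fell were CCNF, CDCA2, CDCA3, PIMREG, FAM83D, CKAP2, TACC3, KNSTRN and CDC25C. The 59 that did not pass included the kinases AURKB (-0.34, adjusted p = 0.0874), TTK (-0.46, adjusted p = 0.0513), BUB1 (-0.32, adjusted p = 0.179) and CDK1 (-0.16, adjusted p = 0.398), and the centromere proteins CENPE (-0.76, adjusted p = 0.104) and CENPF (-0.54, adjusted p = 0.172). CCNB1, the cyclin of mitotic entry, had a log2 fold change of -0.36 and did not pass (adjusted p = 0.0635). Its levels were 89.8, 110.3, 118.0 and 98.9 FPKM in untreated cells and 73.4, 87.7, 81.1 and 80.7 FPKM in HU, so its groups did not overlap either.

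**Figure D2:**
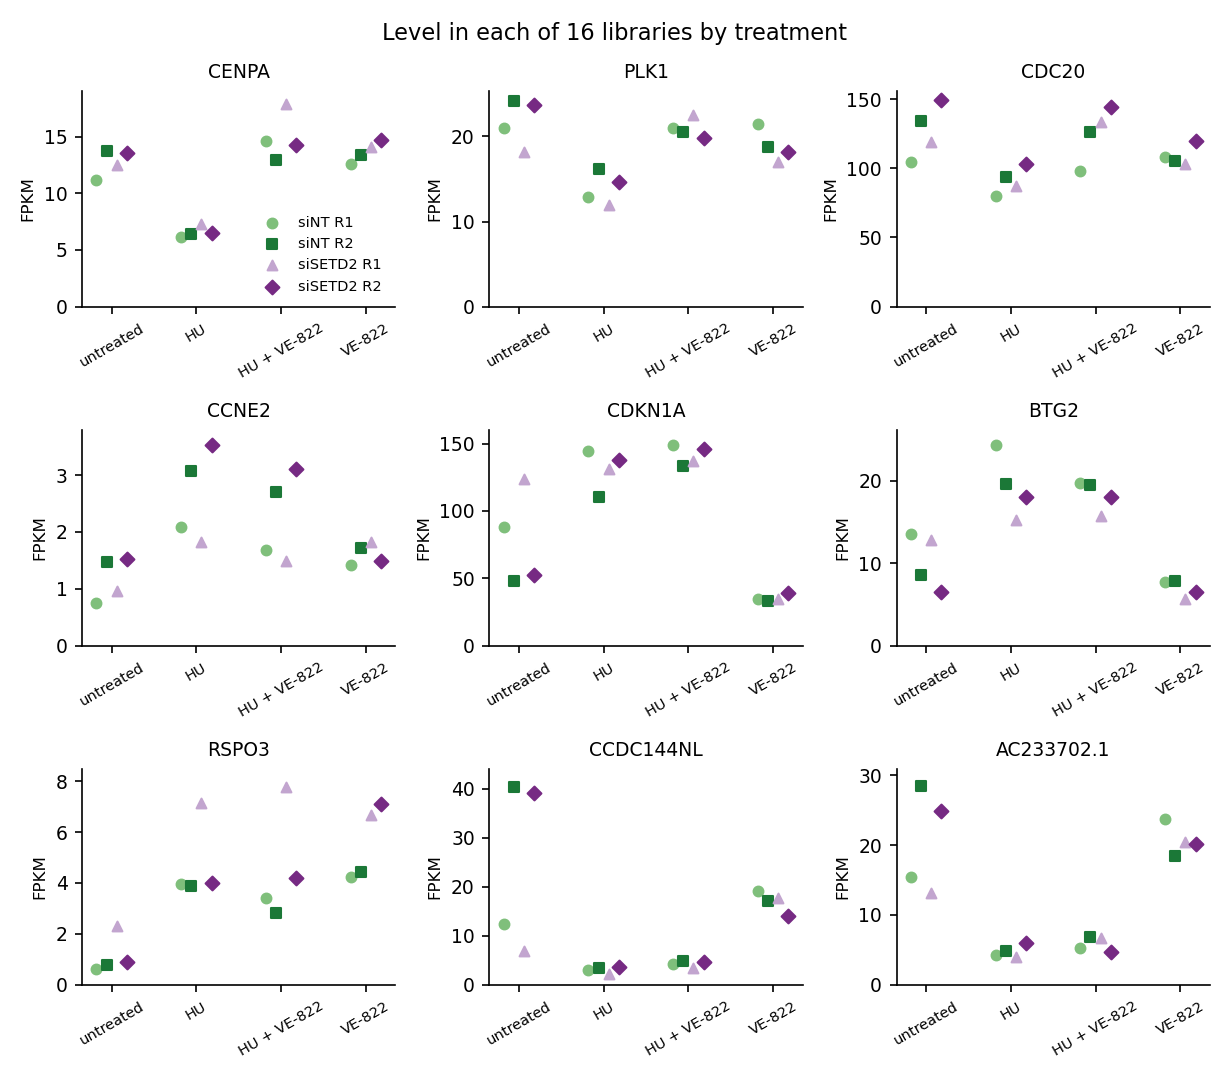
FPKM (y, from 0) of 9 genes in each of the 16 libraries by treatment (x), with 1 marker per siRNA and replicate number. CENPA, PLK1 and CDC20 are low in HU and mostly within or above the untreated range in HU with VE, while CCDC144NL and AC233702.1 are low in both.

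H1F0, the linker histone of slowly dividing cells, was at 77.1, 145, 91.3 and 139 FPKM in untreated cells and at 44.3, 57.1, 39.1 and 61.4 FPKM in HU. The groups did not overlap, and H1F0 fell by 1.12 on the log2 scale (SE 0.093, adjusted p = 0.00117). Of 68 replication-dependent histone genes listed, 14 were tested. Of these 2 fell, against 0.649% of all genes, 0 rose, against 0.619%, and 12 did not pass. In none of the 14 did the groups separate. Of all genes, 2.11% had all HU libraries above all untreated ones and 2.19% had them below. With 14 genes, the lack of separation does not set the list apart from all genes. HIST1H2BJ was at 17.1, 8.80, 23.8 and 8.23 FPKM in untreated cells and at 10.6, 5.55, 10.8 and 6.18 FPKM in HU (log2 fold change -0.67, adjusted p = 0.0214). R1 libraries held more than R2 libraries in both conditions, so that the groups overlapped while each pair moved down. HIST1H2AC fell by 0.55 (adjusted p = 0.043). The list's median was -0.25, with 13 of 14 negative, and these families share reads between near-identical copies, which makes single members uncertain.

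The E2F list, genes that E2F factors switch on for S phase, mostly had small positive fold changes in HU. Of 68 tested, 2 rose, against 0.619% of all genes, and 0 fell, and 63 had a positive fold change, against 53.5% of all genes. In 5 of the 68 all HU libraries lay above all untreated ones, against 2.11% of all genes. The list's median was 0.16, and 0.21, 0.23, 0.05 and 0.19 by pair. CCNE2 (ENSG00000175305), a cyclin that activates CDK2 at the start of S phase, was at 0.757, 1.47, 0.960 and 1.52 FPKM in untreated cells and at 2.08, 3.07, 1.83 and 3.52 FPKM in HU. All HU libraries lay above all untreated ones, and it rose by 0.73 on the log2(FPKM + 1) scale (SE 0.074, adjusted p = 0.00253), with a ratio of group means of 2.23. CCNE2 is overlapped by genes on the other strand, which unstranded counting could not separate. ORC1, a subunit of the origin recognition complex, rose by 0.39 (adjusted p = 0.0456), from 11.6, 14.9, 8.52 and 14.3 to 14.2, 21.3, 12.3 and 18.1 FPKM, with overlapping groups.

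Other S phase genes gave positive fold changes that did not pass. These were 0.43 for PCNA, the sliding clamp (adjusted p = 0.141), 0.41 for CDC25A, the phosphatase that activates CDK2 (adjusted p = 0.0748), 0.40 for E2F1 (adjusted p = 0.0848), 0.33 for the licensing factor CDC6 (adjusted p = 0.0891) and 0.29 for CCNE1 (adjusted p = 0.179). E2F7, a repressor of the same family that p53 also induces, rose by 0.37 (adjusted p = 0.0382). It was the only one of 23 genes of G1 cyclin-dependent kinase control to pass, against 1.27% of all genes.

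The enzyme that HU inhibits did not pass the test at the level of its transcripts. RRM2, the small subunit of ribonucleotide reductase, was at 9.66, 10.7, 15.6 and 12.2 FPKM in untreated cells and at 13.2, 15.6, 14.3 and 16.9 FPKM in HU. It was higher in HU in 3 pairs and lower in the siSETD2 R1 pair, with a log2 fold change of 0.31 (adjusted p = 0.207). The large subunit RRM1 and the p53-inducible subunit RRM2B gave 0.19 and 0.24 (adjusted p = 0.248 and 0.2). Over 38 genes of deoxynucleotide supply 0 rose and 0 fell, against 0.619% and 0.649% of all genes, and the median was 0.06.

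Checkpoint genes moved singly. Of 48 tested, 1 rose, against 0.619% of all genes, and 2 fell, against 0.649%, with a median of 0.04. CDC7, the kinase that fires origins, rose by 0.29 (adjusted p = 0.0397), with overlapping groups. WEE1, the kinase that holds CDK1 inactive, was at 8.73, 9.88, 6.84 and 9.52 FPKM in untreated cells and at 6.37, 7.07, 5.44 and 6.72 FPKM in HU. It fell by 0.39 (adjusted p = 0.0348), with the untreated siSETD2 R1 library inside the HU range, and its opponent CDC25C, the phosphatase that activates CDK1, fell by 0.47 (adjusted p = 0.0477). CHEK1, which encodes CHK1, gave 0.11 (adjusted p = 0.566).

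Of 44 p53 targets tested, 8 rose, against 0.619% of all genes, and 0 fell, 41 had a positive fold change, and in 13 all HU libraries lay above all untreated ones, against 2.11% of all genes. The median was 0.35, with 0.25, 0.47, 0.14 and 0.50 by pair. PPM1D, the phosphatase that switches p53 and the checkpoint kinases off, was at 9.86, 8.71, 9.83 and 7.16 FPKM in untreated cells and at 17.2, 15.8, 13.4 and 13.6 FPKM in HU, with no overlap. It rose by 0.70 (SE 0.09, adjusted p = 0.0106). BTG2, an antiproliferative factor of mRNA decay, was at 13.6, 8.51, 12.8 and 6.53 FPKM and then at 24.3, 19.7, 15.2 and 18.1 FPKM, a log2 fold change of 0.87 (SE 0.17, adjusted p = 0.0456). Its groups did not overlap, and the siSETD2 R1 pair showed the smallest gap.

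The other p53 targets that rose were SUSD6 (0.62), SESN2, an inhibitor of mTORC1 signalling (0.55), TP53INP1 (0.42), the damage sensor XPC (0.39), the death receptor EDA2R (0.39) and E2F7. CDKN1A, which encodes the CDK inhibitor p21, was at 88.1, 47.8, 124 and 52.2 FPKM in untreated cells and at 144, 110.1, 131 and 138 FPKM in HU. The untreated R1 libraries were high and that of siSETD2 lay within the HU range, and CDKN1A did not pass, with a log2 fold change of 0.84 (SE 0.21, adjusted p = 0.0817). MDM2, the ubiquitin ligase of p53, gave 0.50 (adjusted p = 0.135) and GADD45A 0.30 (adjusted p = 0.482). POLH, the translesion polymerase, is outside the list and rose by 0.41 (adjusted p = 0.0304).

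Of 30 immediate early and AP-1 genes, 3 rose, against 0.619% of all genes, and 0 fell, with 26 positive, against 53.5%, and a median of 0.21. ATF3, a stress-induced partner of AP-1 factors, was at 5.003, 4.07, 6.23 and 3.77 FPKM in untreated cells and at 8.59, 9.82, 9.22 and 8.98 FPKM in HU. The groups did not overlap, and ATF3 rose by 0.83 (SE 0.098, adjusted p = 0.00545). NR4A2, an orphan nuclear receptor, was at 1.25, 2.19, 1.47 and 2.22 FPKM and then at 3.25, 5.29, 2.85 and 4.65 FPKM, a log2 fold change of 0.84 (SE 0.082, adjusted p = 0.00241). FOSL2 rose by 0.44 with overlapping groups, since R2 libraries held more of it in both conditions. FOS, JUN and MYC gave 0.42, 0.19 and 0.08 and did not pass (adjusted p = 0.0962, 0.604 and 0.8).

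Of 22 genes on the list of ERK pathway feedback 3 rose, against 0.619% of all genes, and 0 fell, against 0.649%. Fold changes were positive in 17 and negative in 5. The median was 0.18, with 0.06, 0.30, -0.001 and 0.40 by pair. ETV5, a member that was not called, was at 6.37 to 6.81 FPKM in untreated cells and lower, at 4.27 to 6.25 FPKM, in HU. DUSP1, a phosphatase that switches off MAP kinases (chr5:172768090-172771195, minus strand), was at 21.6, 31.9, 25.0 and 34.2 FPKM in untreated cells and at 39.4, 58.4, 34.8 and 56.4 FPKM in HU. Every HU library lay above every untreated one, and it rose by 0.71 (SE 0.094, adjusted p = 0.0115). IL11, a cytokine of the IL6 family, was even across untreated libraries, at 10.5, 11.0, 10.6 and 11.2 FPKM, and at 21.8, 19.99, 16.8 and 23.9 FPKM in HU. It rose by 0.86 (SE 0.13, adjusted p = 0.0191), and DUSP10 by 0.45 with overlapping groups.

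All 32 NF-kB and cytokine genes tested had a positive fold change, against 53.5% of all genes. Of them 3 rose, against 0.619% of all genes, and 0 fell, and the median was 0.26, with 0.19, 0.29, 0.10 and 0.58 by pair. TNFAIP3, the ubiquitin-editing enzyme that limits NF-kB signalling, was at 6.74, 5.81, 8.40 and 6.73 FPKM in untreated cells and at 9.95, 15.1, 14.7 and 19.2 FPKM in HU. It rose by 0.97 (SE 0.15, adjusted p = 0.0223) with no overlap. CCL2, the monocyte chemokine, was at 5.34, 8.52, 5.01 and 5.97 FPKM and then at 11.0, 22.2, 7.94 and 17.0 FPKM, with a ratio of group means of 2.34 and an adjusted p of 0.0412. Its lowest HU value, in siSETD2 R1, lay below the highest untreated value. IL6 rose by 0.77 (adjusted p = 0.0191), from 0.362, 1.69, 0.610 and 1.61 to 1.65, 4.41, 0.939 and 3.69 FPKM, with the siSETD2 R1 pair again the least changed.

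Several secreted factors and receptors outside these lists also rose. INHBA, the activin A subunit, was at 17.2, 8.31, 9.98 and 5.65 FPKM in untreated cells and at 21.1, 19.2, 18.8 and 15.8 FPKM in HU (log2 fold change 0.90, adjusted p = 0.0398), and its lowest HU value lay below the highest untreated one. FST, the secreted inhibitor of activin, rose by 0.59 (adjusted p = 0.0232). TNFRSF9, a costimulatory receptor of T cells, rose by 0.82 (adjusted p = 0.00773) from 1.52, 2.39, 1.79 and 2.51 to 2.74, 5.28, 3.59 and 6.50 FPKM. The chemokine gene CCL3 rose by 0.96 (adjusted p = 0.0468), VEGFC by 0.61 and EDN1 by 0.58.

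RSPO3 (ENSG00000146374, chr6:127118604-127197765, plus strand), a secreted enhancer of Wnt signalling, was the gene with the lowest p of the comparison. It was at 0.602, 0.785, 2.31 and 0.890 FPKM in untreated cells and at 3.97, 3.88, 7.13 and 4.00 FPKM in HU. The groups did not overlap, and the untreated siSETD2 R1 library, the highest untreated one, was paired with the highest HU library. RSPO3 rose by 1.45 on the log2(FPKM + 1) scale (SE 0.086, adjusted p = 0.000226), with a ratio of group means of 4.14. It was also at 4.24 to 7.11 FPKM in VE alone and at 2.83 to 7.78 FPKM in HU with VE. Of 29 Wnt and BMP genes tested, 1 rose, which was RSPO3, against 0.619% of all genes. Another 1 fell, against 0.649%, which was the Wnt receptor FZD2, at -0.73 (adjusted p = 0.00916). NUAK2, an AMPK-related kinase and a YAP target, was at 1.29, 1.73, 0.998 and 1.79 FPKM and then at 2.77, 3.70, 2.04 and 4.24 FPKM, with no overlap. It rose by 0.75 (SE 0.065, adjusted p = 0.00146) and was the only one of 24 Hippo pathway genes to pass, against 1.27% of all genes.

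**Figure D3:**
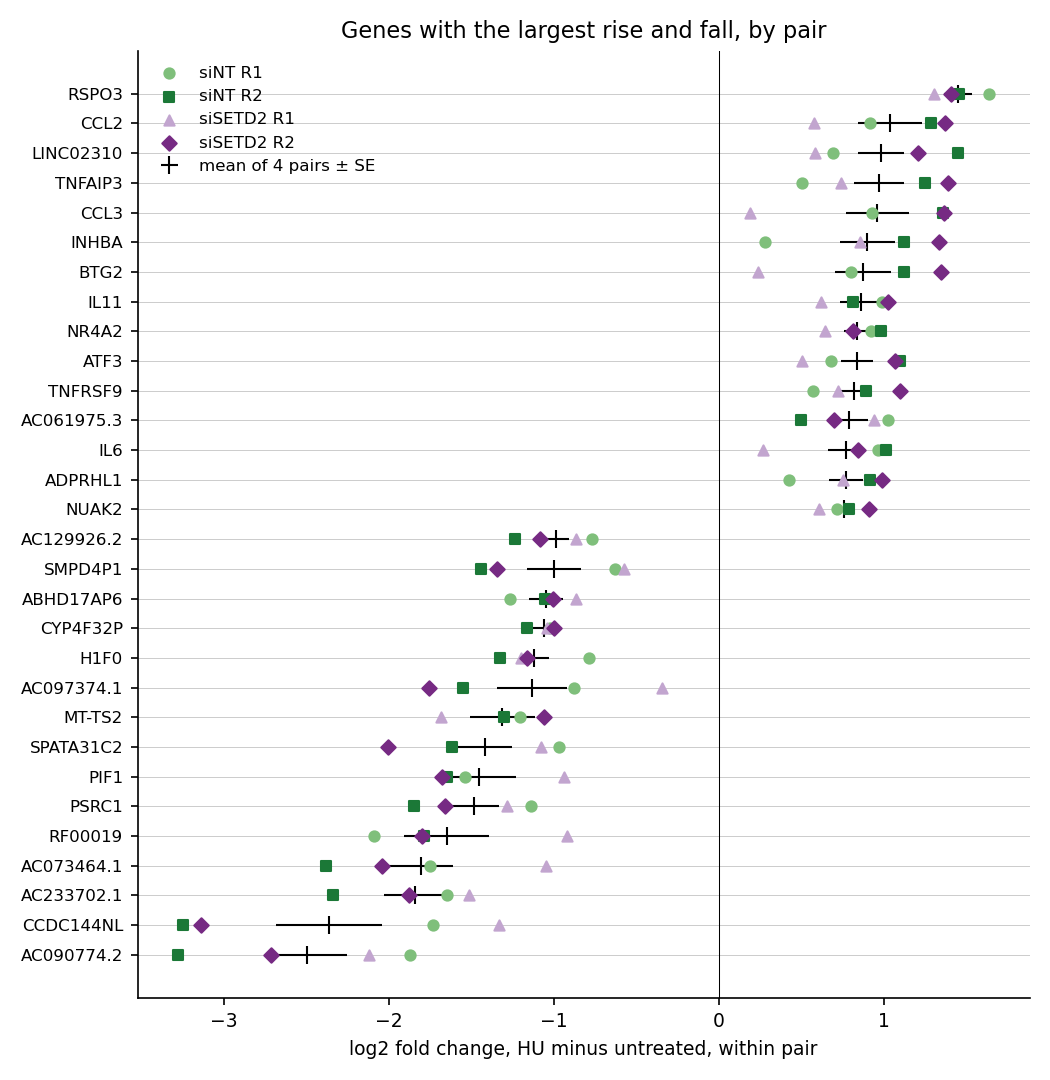
Log2 fold change of HU minus untreated (x) for the 15 genes with the largest rise and the 15 with the largest fall among the calls (y), with 1 marker for each of the 4 pairs and the mean ± SE in black. All 4 markers of each gene lie on one side of 0, from RSPO3 at 1.45 to AC090774.2 at -2.50.

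The largest falls were in transcripts of chromosome 17p11 and of pseudogene-rich segments on other chromosomes. These were singled out after their values were seen. CCDC144NL (ENSG00000205212, chr17:20836447-20896140, minus strand) was at 12.3, 40.3, 6.94 and 39.1 FPKM in untreated cells and at 3.01, 3.36, 2.14 and 3.55 FPKM in HU. The untreated R1 libraries held far less than the untreated R2 libraries, and all HU libraries lay below both. It fell by 2.36 on the log2 scale (SE 0.32, adjusted p = 0.0135) to 12.2% of the untreated mean. AC090774.2 (chr17:20855946-20857317, plus strand), a transcript inside the span of CCDC144NL on the other strand, was at 7.52, 18.1, 6.41 and 15.5 FPKM and then at 1.33, 0.974, 0.708 and 1.51 FPKM. It fell by 2.50 (SE 0.24, adjusted p = 0.00241). Since use of strand in the counting is not given in the sources used here, CCDC144NL and the transcripts that overlap it cannot be told apart.

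AC233702.1 (chr17:21614487-21641536, plus strand), which overlaps no other gene, was at 15.4, 28.5, 13.2 and 24.9 FPKM in untreated cells and at 4.23, 4.85, 3.97 and 6.04 FPKM in HU. It fell by 1.84 (SE 0.18, adjusted p = 0.00242). The segments given next were drawn after the values were seen, from the first to the last gene that fell, so their shares are a description and are raised by that choice. Over all genes tested, 0.649% fell. Within chr17:20814620-22205154, 6 of 15 genes tested fell, the others being ABHD17AP6, CCDC144NL-AS1 and the ubiquitin pseudogene UBBP4. ABHD17AP6, AC090774.2 and CCDC144NL-AS1 all overlap CCDC144NL on the other strand, so these cannot be counted as separate falls. On chr2:94759259-94947341, 3 of 4 genes tested fell, namely CYP4F32P, AC073464.1 and AC097374.1. CYP4F32P, a cytochrome P450 pseudogene, was at 73.5, 162, 60.0 and 134 FPKM and then at 35.5, 71.9, 28.6 and 66.8 FPKM, a log2 fold change of -1.06 (SE 0.071, adjusted p = 0.000352). Its HU R2 libraries reached the level of the untreated R1 libraries, so that the groups overlapped while each pair moved down. On chr9:88129458-88178578 both genes tested fell, SPATA31C2 and AL353726.2, by 1.42 and 0.99. Pseudogenes share reads with near-identical copies, and single members are uncertain for that reason.

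Of the 15 largest falls, SMPD4P1, a pseudogene on chromosome 22, and AC129926.2, a long noncoding RNA on chromosome 17, were the smallest, with log2 fold changes of -0.9998 and -0.988. RF00019 fell by 1.65 (adjusted p = 0.0215), from 5.53 to 11.4 FPKM in untreated cells to 1.06 to 2.56 FPKM in HU. It is 107 bases long, so these levels rest on few fragments. RF00019 lies inside TOP2A, a mitotic gene, on the same strand, so some fragments may be shared. The mitochondrial tRNA gene MT-TS2 fell by 1.31 (adjusted p = 0.0191), from 72.6, 62.0, 112 and 43.9 to 30.9, 24.6, 34.2 and 20.6 FPKM. Of the 13 genes on the list of mitochondrially encoded transcripts 0 passed, against 1.27% of all genes. Among smaller falls, HES7, a transcriptional repressor of the segmentation clock, fell by 0.94 (adjusted p = 0.00241), from 5.63, 4.72, 8.81 and 5.80 to 3.01, 1.82, 4.32 and 2.10 FPKM, with no overlap. DHRS2, a mitochondrial reductase and the most abundant gene described here, was at 286, 446, 283 and 446 FPKM in untreated cells and at 180.5, 268, 183 and 288 FPKM in HU. It fell by 0.66 (adjusted p = 0.00349), although the HU R2 library of siSETD2 lay just above the untreated R1 libraries.

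The remaining lists gave 0 or 1 call each, where 0.619% of all genes rose and 0.649% fell. With lists this short, 0 or 1 call does not set a list apart from all genes. Of 39 interferon-stimulated genes 1 rose, IRF1, by 0.52 (adjusted p = 0.0466), with a list median of -0.01. Of 44 genes of the ATF4 and unfolded protein response 1 rose, SESN2, which is also on the p53 list, with a median of 0.09. The single genes that rose on other lists were TIMP3, an inhibitor of matrix proteases, of 37 extracellular matrix and TGF-beta genes, the exporter ABCC2 of 23 NRF2 genes, and CCNT1, the cyclin of the elongation factor P-TEFb, of 20 pause release genes. Among 30 cholesterol synthesis genes, 18 heat shock chaperones and 13 enzymes of H3K36 methylation 0 were called, with medians of -0.04, -0.01 and 0.01.

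**Figure D4:**
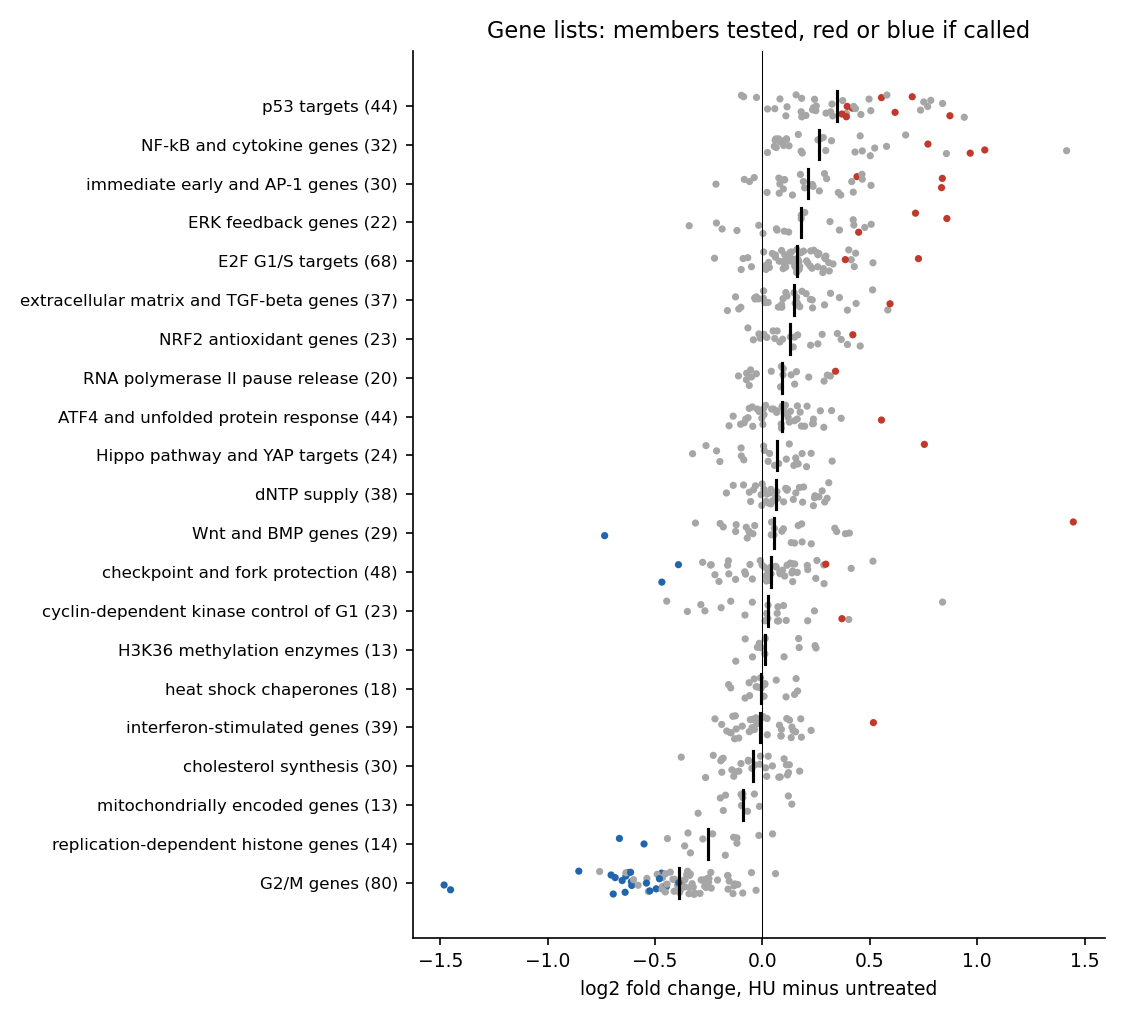
Log2 fold change of HU minus untreated (x) for the tested members of each gene list (y, number tested in brackets), each point a gene, with called genes in red (higher) or blue (lower). Members of the G2/M list lie left of 0 with 1 exception, and those of the NF-kB list lie right of it.

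The response did not differ detectably between siRNAs. With limma, 0 of 13088 genes passed for the difference of the HU response between siSETD2 and siNT, 273 had an unadjusted p under 0.05, and a fit of the recovered fragment counts with voom also gave 0 calls, with 206 at an unadjusted p under 0.05. A p that misses the threshold does not show that the responses were alike. In siNT cells alone 0 genes passed, with 1368 at an unadjusted p under 0.05, and in siSETD2 cells alone 0, with 921. Counts by replicate number also differed, but no difference of the HU response between R1 and R2 was fitted. These counts therefore do not show that the responses differed or that R1 had none. In R2 libraries alone 579 genes rose and 460 fell, and in R1 libraries alone 0 rose and 1 fell. The median of the p53 list was 0.47 and 0.50 in the R2 pairs and 0.25 and 0.14 in the R1 pairs. That of the G2/M list was -0.52 and -0.50 in the R2 pairs and -0.31 and -0.29 in the R1 pairs. Medians of the NF-kB, immediate early, ERK feedback, NRF2, ATF4 and deoxynucleotide supply lists were also higher in both R2 pairs than in both R1 pairs. For the NF-kB list they were 0.29 and 0.58 in the R2 pairs and 0.19 and 0.10 in the R1 pairs. Some lists were not ordered by replicate number. That of extracellular matrix and TGF-beta genes was at -0.04 and 0.07 in the siNT pairs and 0.23 and 0.21 in the siSETD2 pairs. The part of the high untreated R1 levels, such as those of CDKN1A, in these values was not tested.

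**Figure D5:**
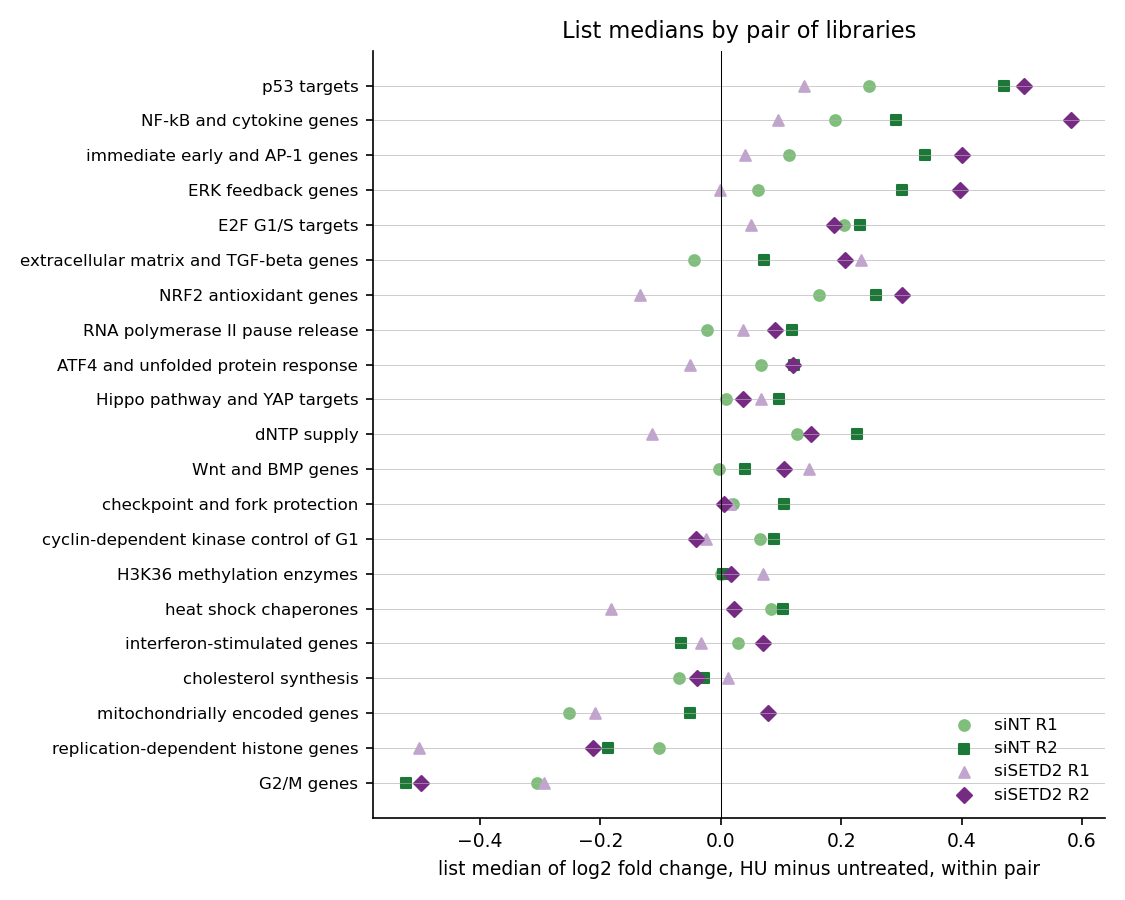
Median log2 fold change of HU minus untreated within each pair (x) for each gene list (y), with 1 marker per siRNA and replicate number. For the G2/M list the 4 medians run from -0.52 to -0.29, and for the NF-kB list from 0.10 to 0.58.

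The libraries with HU and VE, set beside those with HU alone, are given as values that share the untreated libraries. For the G2/M list the median against untreated was -0.02 with HU and VE and -0.39 with HU. By pair, the median with HU and VE was 0.13 and 0.26 in the R1 pairs and -0.32 and -0.16 in the R2 pairs. For the p53 list it was 0.32 and 0.35, for the NF-kB list 0.41 and 0.26, and for the replication-dependent histones 0.02 and -0.25. CCDC144NL was at 3.33 to 4.89 FPKM and AC233702.1 at 4.73 to 6.81 FPKM with HU and VE, both below the untreated range, while PLK1, at 19.8 to 22.5 FPKM, lay within it. PSRC1 was at 12.3 to 14.4 FPKM with HU and VE, a mean of 13.1 FPKM against 21.0 FPKM in untreated and 6.62 FPKM in HU libraries. These differences were not tested here.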

How the data were processed

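The deposited table held FPKM values made by the authors for 58735 genes in 16 libraries. The submitters' processing notes name STAR 2.6.1d, DESeq2 1.26.0, featureCounts 1.5.0-p3 and FastQC, with build hg38, while their annotation release and strand setting are not stated in the labels or file. Gene positions and merged exon lengths came from GENCODE 29 (GRCh38). FPKM times exon length gave whole fragments (tolerance 0.01) for 100% of values, and these gave the depths. Values were analysed as log2(FPKM + 1) for genes averaging 1 FPKM or more.

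limma 3.58.1 in R 4.3.3 (limma-trend) was fitted to 12 libraries (untreated, HU, HU with VE), with treatment and a block for each pair of siRNA and replicate number, which left 6 residual degrees of freedom with a prior of 3.72. p-values were adjusted by Benjamini-Hochberg over 13088 genes, with 0.05 as threshold, and a second fit added the difference between siRNAs. Replicate numbers paired these libraries in the data, not in the labels: the difference R1 minus R2 correlated across genes at 0.363 to 0.746 in 15 pairs of groups, against -0.0517 to 0.295 in 12 pairs with VE alone, which was left out of the fit. The script was tested on simulated data.

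Genes named were the 15 largest rises and 15 largest falls among calls with the same sign in 4 pairs, up to 4 genes of lowest p in each list, and a set of stress and cell cycle genes. Other called genes, among them DHRS2, HES7, FST, VEGFC, EDN1 and POLH, were chosen after their values were seen. Lists were written from general knowledge, and the members and lists were chosen with earlier results of these data known. Alternatives were other pseudocounts, filters, scalings and blocks, voom, and leaving out each library.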

Additional observations from a re-analysis of the deposited data

How the results depend on the processing

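Every one of the 166 calls kept its direction in each alternative that gave it a value. Each call already had the same sign in all 4 pairs, so refits of these libraries had little room to reverse it. The kept direction is therefore no separate support. Counts of genes that rose and fell, 81 and 85, were far less stable. They were 9 and 14 with no filter on low values, 8 and 23 with the replicate block in the 8 libraries alone, 0 and 0 without the block in the 12 libraries (737 genes at an unadjusted p under 0.05), 5 and 9 without it in all 16, 200 and 190 with voom on recovered fragments, and 89 and 55 after rescaling to equal totals. Pseudocount 0.1, a minimum of 5 FPKM and a robust prior gave 81 to 84 and 86 to 88. Like counts were not like genes with the minimum of 5 FPKM. There 104 of the 166 calls had a value, and 49 that rose and 54 that fell were called again. Leaving out 1 library gave 6 to 179 that rose and 13 to 213 that fell, with the lowest counts without siSETD2 HU R2 and the highest without untreated siSETD2 R1. Within R1, R2, siNT and siSETD2 libraries, chosen after seeing the data, the counts were 0 and 1, 579 and 460, 0 and 0, and 0 and 0. Genes that differed between siRNAs, 0 in the report, numbered 17 with no filter and 0 to 4 when 1 library was left out, the 4 without untreated siSETD2 R2. The cause was not tested. Of 1138 values of 55 called named genes, 571 stayed past the threshold and 567 did not. Of these values 0 reversed, which the same sign in all pairs made likely beforehand. Among uncalled genes, SETD2 ran from -0.0538 (without untreated siSETD2 R1) to 0.0426 when 1 library was left out, and was -0.0025 within R2 and -0.0193 within siNT. MYC was -0.134, GADD45A -0.128 and JUN -0.0599 within R1, and MYC ran from -0.0143 (without untreated siSETD2 R2) to 0.186 when 1 library was left out. Of 483 values of list medians, 469 stayed within 1 SD of the pairs. The fits without the block, in the 8 libraries alone and with a robust prior leave the fold changes as they were, so their medians could not move. The SD also came from the same pairs, so this count is no separate support. No alternative changed the depth, so its part in these counts was not tested.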

Other observations

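Further genes that passed, of which IRF3, FAM111B and RNASE1 were singled out after their values were seen, included a pair of interferon regulatory factors that moved in opposite directions. IRF3, the factor that switches on interferon genes after nucleic acid sensing, was at 9.71, 9.23, 9.21 and 10.3 FPKM in untreated cells and at 7.59, 6.78, 6.60 and 6.91 FPKM in HU. It fell by 0.41 on the log2 scale (limma, adjusted p = 0.0179) with no overlap, and it shares its locus with BCL2L12 on the other strand. IRF1 was at 1.18, 1.32, 1.39 and 1.51 FPKM and then at 2.14, 2.67, 1.78 and 2.96 FPKM, again with no overlap.

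FAM111B, a protease of S phase cells, rose by 0.63 (adjusted p = 0.00526), from 7.30, 15.6, 7.79 and 15.1 to 13.8, 22.2, 12.1 and 23.6 FPKM. Each HU library was higher than its partner, while R2 libraries held more than R1 libraries in both conditions and the groups overlapped. LINC02310, a long noncoding RNA, rose by 0.98 (adjusted p = 0.0179), from 5.38, 2.18, 5.86 and 1.99 to 9.29, 7.68, 9.28 and 5.88 FPKM, and ADPRHL1, a relative of ADP-ribosyl hydrolases, rose by 0.77 (adjusted p = 0.0135). RNASE1, a secreted ribonuclease, fell by 0.67 (adjusted p = 0.0456), from 2.54, 2.18, 4.64 and 2.87 to 1.36, 1.09, 2.06 and 1.51 FPKM, with no overlap.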
